A study of Drosophila melanogaster with 8 samples.

Results

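In single-nucleus RNA-seq of whole wandering *Drosophila* larvae of the third instar, 105 nuclei of cluster 9, a cluster its authors called mixed, carried markers of oenocytes. They were chosen by marker counts alone. The study's authors report that their own search for oenocyte nuclei in this atlas failed. They also re-clustered the mixed clusters. A nucleus was marker-positive when at least 2 of 7 markers (*Cyp4g1*, the lectin genes *Lectin-galC1* and *lectin-22C*, the fatty acid synthases *FASN2* and *FASN3*, *svp* and *CG7763*) had a corrected count of 0.5 or more, and marker-free when none was above 0.1. Cluster 9 held 1090 of the 30819 nuclei, of which 701 were marker-free and 284 lay between the 2 sides. All 8 libraries came from 1 condition, *w1118* larvae (a white-eyed laboratory strain) at 5 days after egg deposition. Each library was made from a pool of 16 larvae, 8 males and 8 females, so the comparison is between 2 kinds of nuclei inside the same libraries and not between treatments. A library held 3090 to 5405 nuclei. Values are corrected counts of unique molecular identifiers (UMIs, each marking 1 RNA molecule) after the estimated ambient RNA was subtracted.

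Oenocytes are large secretory cells that sit in segmental groups under the larval epidermis. They make very long chain fatty acids and hydrocarbons, which waterproof the cuticle and the tracheal tubes, and they take up lipid released by the fat body. In this pathway fatty acid synthases build the chain, elongases and desaturases extend and modify it, fatty acyl-CoA reductases turn it into an aldehyde or alcohol, and the cytochrome P450 Cyp4g1 with its reductase partner removes the end group to leave a hydrocarbon. Among the markers, *svp* encodes a nuclear receptor of the COUP-TF family used to mark oenocytes, and both lectin genes encode C-type lectins. In the BDGP6.54 annotation *FASN3* lies on 3L (25752859 to 25762779, minus strand), *Cyp4g1* on X (467057 to 469335, minus strand), *Lectin-galC1* on 2L (19417447 to 19418274, plus strand) and *lectin-22C* on 2L (2036409 to 2037265, minus strand).

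The marker-positive nuclei were unevenly spread over the libraries and were the deeper side everywhere. They made up 9.63% of cluster 9 (95% Wilson interval 8.02 to 11.5%), or 8.11% ± 6.61 (SD, n = 8 libraries) as a mean over libraries. Library 5 had the highest share, 35 of 185 nuclei or 18.9% (13.9 to 25.2%). Libraries 6, 7 and 8 had 13, 20 and 23 such nuclei. Libraries 1 and 2 had 3 each, at 1.86% and 3.57%, and library 4 had 8 at 4.76%. In library 3, 0 of 25 nuclei were marker-positive, which allows a share of up to 12%, so that library entered no comparison and 7 libraries did. These intervals cover counting error only. The observed share was below 5% in every one of libraries 1 to 4 and above 9% in every one of libraries 5 to 8. Some of the intervals overlapped across this split, reaching 9.98% in library 2 and 9.11% in library 4 and starting at 5.71% in library 6. The interval of library 5 overlapped none of those of libraries 1 to 4. That of library 7 started at 9.17%, above the ends of those of libraries 1 and 4. The marker-free nuclei of libraries 1, 2 and 3 held a median of 1622, 1822 and 824 UMIs of genes outside the rule. Those of libraries 4 to 8 held 2585 to 3070, with library 4 at 2966. Whether depth has a part in the split was not tested. The median nucleus of the marker-positive side held 5022 UMIs of genes outside the rule, against 2325 on the marker-free side. The library medians ran from 2482 to 6937 UMIs on the first side and from 1622 to 3070 on the second over the same 7 libraries, with the marker-positive side deeper in each. For this reason comparisons were also made with 105 marker-free nuclei picked within each library to match the positive nuclei in UMIs (median 5031).

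**Figure D1:**
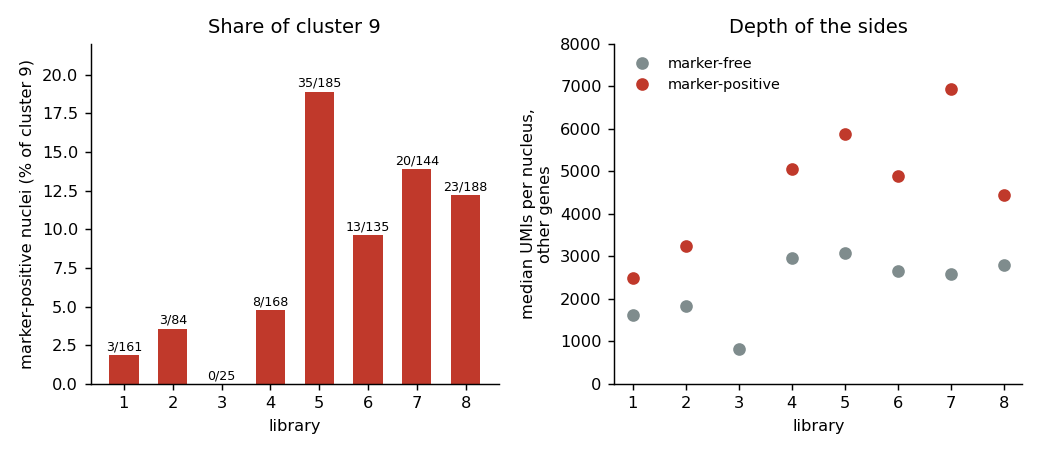
Left, marker-positive nuclei as a percentage of the cluster 9 nuclei of each library (counts above the bars). Right, median UMIs per nucleus of all genes outside the marker rule, for marker-positive (red) and marker-free (grey) nuclei of each library. Libraries 5 to 8 hold most of the positive nuclei, and the red points lie above the grey points in all 7 libraries that have both.

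Barcodes that occur in more than 1 library were carried by 10 of the 105 marker-positive nuclei (9.52%) and by 35 of the marker-free ones (4.99%). Library 5 held 7 of the 10. The 10 barcodes occurred in 18 other nuclei of the series, none of which met the positive rule and 5 of which were in cluster 9. Whether these are shared nuclei or chance repeats of a barcode was not tested, and counts without them are given below.

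3 of the 7 markers chose most of the nuclei, and most nuclei carried them at about 1 molecule. *Cyp4g1* reached 0.5 in 82 of the 105 nuclei, *FASN3* in 77 and *Lectin-galC1* in 74, whereas *svp* and *lectin-22C* did so in 14 each, *FASN2* in 5 and *CG7763* in 2. The median count where a marker was found was 0.94 for *FASN3* and *Cyp4g1* and 0.95 for *Lectin-galC1*, with highest counts of 20.2, 16.6 and 10.4. At least 2 of these 3 markers were in 92 nuclei (87.6%), and all 3 in 36. Exactly 2 markers were found in 63 nuclei, 3 in 30, 4 in 8 and 5 in 4, and none had more. The 5 nuclei with *FASN2* all had *FASN3* and *Cyp4g1* too, and of the 14 with *lectin-22C*, 13 had *Cyp4g1* and 12 had *FASN3*. Both nuclei with *CG7763* had *FASN3*, and neither had *Cyp4g1* or *Lectin-galC1*. These values describe the choice and carry no test.

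The threshold cut through a continuous range. The second highest marker count decides membership, and it was 0.507 in the lowest marker-positive nucleus and 0.484 in the highest nucleus left out. It lay between 0.5 and 0.6 in 13 nuclei just inside and between 0.4 and 0.5 in 9 just outside. In the 284 nuclei on neither side, 206 had exactly 1 marker at 0.5 or more.

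The same rule was met by 63 nuclei of mixed cluster 16 (9.75% of its nuclei) and by 67 of fat body cluster 15 (8.90%), but by 4 of 1374 hemocyte nuclei (0.291%) and by 0 of 401 muscle nuclei, which allows up to 0.748%. Cluster 9 had a higher share than 26 of the other 27 clusters. Its median nucleus held 2743 UMIs, against 1230 in cluster 16, 1058 in cluster 15, 1194 in hemocytes and 699 in muscle. After every nucleus was thinned to 1000 UMIs and shallower ones were left out (102 in cluster 9), 19 of 988 nuclei of cluster 9 met the rule, or 1.92% (1.23 to 2.98%). At that depth mixed cluster 11 had 3.62% (2.13 to 6.10%), cluster 15 had 2.60%, cluster 16 had 1.80% and hemocytes had 0.333%, and 5 clusters were above cluster 9. At equal depth the share of cluster 9 thus lay above that of hemocytes, within the intervals of clusters 15 and 16 and below the share of cluster 11. The intervals of clusters 9 and 11 overlapped. All of these intervals pool the nuclei of the libraries and cover counting error only. The other clusters above cluster 9 were enterocyte cluster 3 with 2.24% (1.22 to 4.07%), mixed cluster 8 with 2.30% (1.22 to 4.32%) and mixed cluster 19 with 3.31% (1.53 to 7.04%). The share of cluster 9 lay within each of these intervals, so at that depth it was not set apart from a gut cluster. Single markers were also found elsewhere. *FASN3* was found at 0.5 or more in 12.02% of cluster 9 nuclei but also in 3.06% of hemocytes, and *svp* in 3.03% of cluster 9 but in 24.9% of eye disc cluster 26 and 12.9% of cluster 15.

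Each marker was then measured in nuclei chosen by the other 6, so that it had no part in choosing them. *FASN3*, *Cyp4g1* and *Lectin-galC1* were each higher in nuclei picked by the rest of the list in every library used, with fitted folds of 20.0, 13.6 and 10.6, and *lectin-22C* followed where low counts were kept. The other 3 markers showed no difference that passed the test. With *FASN3* held out, 68 nuclei were positive and 766 marker-free in 5 libraries, and its level, as corrected counts in 1000000 of each side's summed counts (CPM), was 539, 334, 229, 667 and 274 in the positive nuclei of libraries 4 to 8. In the marker-free nuclei of the same libraries it was 7.97, 26.7, 5.55, 17.1 and 33.8 CPM. The 2 ranges did not overlap, and the lowest positive library was several times the highest marker-free one. The log2 difference was 4.32 (SE 0.35, adjusted p = 1.75e-05 in edgeR's quasi-likelihood test with library as a block), and 16 of the 1689 genes tested in that fit were higher (0.947%).

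*Cyp4g1*, held out in turn, was at 199, 275, 157, 427 and 215 CPM in the positive nuclei of libraries 4 to 8 and at 5.75, 18.2, 25.9, 14.5 and 26.4 CPM in the marker-free nuclei. Again no library of one side reached the other. The log2 difference was 3.77 (SE 0.32, edgeR adjusted p = 8.34e-06), with 0.406% of 1726 genes called higher. *Lectin-galC1* was at 654, 228, 147, 326 and 114 CPM against 15.1, 30.3, 22.8, 27.3 and 15.7 CPM, also without overlap. Its log2 difference was 3.40 (SE 0.32, edgeR adjusted p = 4.52e-05), with 1.07% of 1776 genes called higher. These 3 genes kept their calls against depth-matched marker-free nuclei, with log2 differences of 3.97, 4.12 and 2.81 and edgeR adjusted p of 0.00104, 0.00121 and 0.0217. Leaving out nuclei whose barcode occurred in another library gave 4.36, 3.80 and 3.62, all called. In summed counts, more nuclei with a transcript and more transcript in each nucleus cannot be told apart, but the share of nuclei at 0.5 or more does not rest on sums, although it rises with depth. It was 58.8% against 6.40% for *FASN3*, 64.6% against 6.57% for *Cyp4g1* and 54.4% against 6.45% for *Lectin-galC1*. The markers were listed with earlier results of these data known, so this describes how they occur together and is no independent choice of oenocyte genes.

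**Figure D2:**
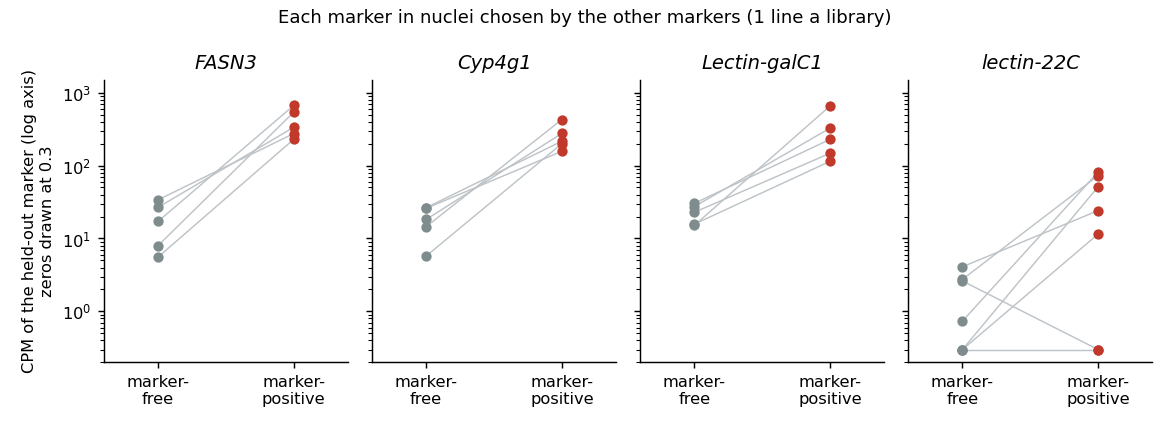
Level of each held-out marker (CPM, log axis, zeros drawn at 0.3) in marker-free (grey) and marker-positive (red) nuclei chosen by the other 6 markers, with 1 line a library. For *FASN3*, *Cyp4g1* and *Lectin-galC1* all 5 red points lie above all 5 grey points, while *lectin-22C* was at 0 in the positive nuclei of libraries 1 and 2.

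*lectin-22C* did not pass the filter on low counts. With all genes kept it was higher in nuclei chosen by the other markers, with 0, 0, 81.5, 51.3, 11.5, 72.8 and 24.1 CPM in libraries 1, 2 and 4 to 8, against at most 4.09 CPM in any marker-free sum. The log2 difference was 4.13 (SE 0.51, edgeR adjusted p = 1.75e-09, with 0.172% of 9903 genes called higher). It was 5.10 against depth-matched nuclei and 3.70 to 5.01 when 1 library was left out, called each time. *lectin-22C* reached 0.5 in 11.7% of 103 positive nuclei and in 0.425% of 706 marker-free ones. *svp* (6.19% against 2.56% of nuclei, edgeR adjusted p = 0.946), *FASN2* (4.76% against 0.142%, adjusted p = 0.855) and *CG7763* (0% against 0.281%, adjusted p = 0.939) did not pass with all genes kept.

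Among genes outside the rule, 6 of the lists of lipid and hydrocarbon synthesis and of the peroxisome were higher in the marker-positive nuclei. 3 fatty acyl-CoA reductases (*FarO*, *CG17562* and *CG4020*), the predicted desaturase *CG15531*, the predicted elongase *CG6660* and *Pmp70*, a peroxisomal ABC transporter, were 3.20-fold to 12.4-fold higher. All 6 were too low for the filter, which 2 libraries with 3 positive nuclei each made strict, and were tested in the fit that kept all 9904 genes with a count. That fit called 16 genes higher (0.162%) and 37 lower (0.374%). Its scaling moved the log2 difference of the genes found in both fits by -0.21 at the median, so the folds here are on a lower base than those of the filtered fit. The 6 genes are in the lists of lipid genes and were named after their values were seen. None of the 6 had its highest level over all clusters in cluster 9. *FarO* (24.5 CPM, against 10.6 CPM in cluster 9), *CG17562*, *CG4020* and *CG6660* had it in fat body cluster 15. *CG15531* had it in mixed cluster 11 and *Pmp70* in gonad cluster 24.

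*FarO* encodes the fatty acyl-CoA reductase named for its expression in oenocytes and lies on X at 2201820 to 2203866 on the minus strand (BDGP6.54). Its level was 0 CPM in the positive nuclei of libraries 1 and 2, and 78.4, 35.8, 48.9, 42.7 and 42.8 CPM in those of libraries 4 to 8. In the marker-free nuclei it was 0 in libraries 1, 2, 6 and 7 and at most 6.82 CPM in the others. All 5 libraries with more than 3 positive nuclei were thus above every marker-free sum. The log2 difference was 3.61 (SE 0.48, edgeR adjusted p = 4.17e-08). The counts came from many nuclei at about 1 molecule each, 24 of 105 positive nuclei (22.9%) against 5 of 701 marker-free ones (0.713%) and 1 of 105 depth-matched ones.

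*CG17562* was at 369, 0, 164, 32.4, 49.0, 44.1 and 16.5 CPM in the positive nuclei of libraries 1, 2 and 4 to 8 and at most 5.58 CPM in marker-free nuclei. Only library 2 was not above all marker-free sums, and the log2 difference was 3.64 (SE 0.46, edgeR adjusted p = 1.23e-08). *CG4020* was at 135, 80.5, 56.0, 21.2, 60.5, 36.5 and 38.7 CPM against at most 8.07 CPM, so that it was the reductase with no overlap in any of the 7 libraries. Its log2 difference was 3.37 (SE 0.49, edgeR adjusted p = 7.29e-07). The positive sums of libraries 1 and 2 held 6745 and 10012 UMIs of genes outside the rule. Levels of low genes in these libraries thus rest on very few molecules. *CG15531* was at 130, 0, 66.4, 59.2, 66.3, 66.6 and 67.9 CPM against at most 12.4 CPM, with a log2 difference of 2.74 (SE 0.37, edgeR adjusted p = 2.84e-08). Its positive sums overlapped the marker-free ones only through the 0 of library 2.

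*CG6660* was at 0 in the positive nuclei of libraries 1 and 2 and at 25.0 to 108 CPM in the other 5, against 0 to 11.9 CPM (log2 difference 2.57, SE 0.44, edgeR adjusted p = 0.000136). *Pmp70*, whose family carries very long chain acyl-CoA into peroxisomes, was at 18.1 to 135 CPM (median 49.4) against 4.40 to 22.2 CPM (median 10.4), higher in 7 of 7 libraries with 1 positive library inside the marker-free range. Its log2 difference was 1.68 (SE 0.38, edgeR adjusted p = 0.0245), and the call was lost without library 5, 6 or 7, without the library block and with 3 or more markers.

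4 of the 6 genes kept their call at matched depth. Against depth-matched marker-free nuclei, and with all 8885 genes kept, the log2 differences were 3.93 for *FarO*, 2.86 for *CG17562*, 2.69 for *CG4020* and 3.42 for *CG15531* (edgeR adjusted p = 6.98e-05, 0.00309, 0.0136 and 6.93e-06). *CG6660* at 2.12 (edgeR adjusted p = 0.0717) and *Pmp70* at 1.90 (edgeR adjusted p = 0.137) did not pass. The median over all genes was 0.0039 in that fit and -0.29 against all marker-free nuclei, so relative to it *CG17562* and *CG4020* in particular differed less at matched depth. That fit called 25 genes higher (0.281%) and 9 lower (0.101%), of which 10 and 7 were also called with all marker-free nuclei. *FarO*, *CG17562*, *CG4020*, *CG15531* and *CG6660* kept their calls without the nuclei of repeated barcodes and with each library left out in turn, with log2 differences from 2.19 (*CG6660*) to 4.35 (*FarO*) in the latter.

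**Figure D3:**
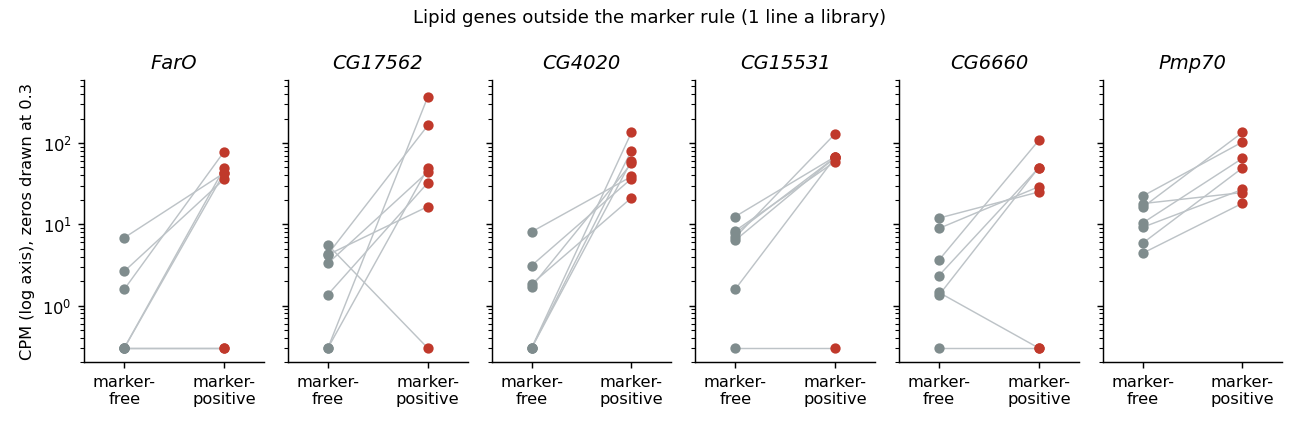
Level (CPM of each side's sum, log axis, zeros drawn at 0.3) of 6 lipid genes that had no part in the marker rule, in marker-free (grey) and marker-positive (red) nuclei of cluster 9, with 1 line for each of 7 libraries. *CG4020* was higher with no overlap in all 7 libraries, and the zeros of the other genes on the red side belong to libraries 1 and 2, which hold 3 positive nuclei each. Red points of libraries 1 and 2 rest on very few molecules.

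The lipid genes were found in the same nuclei as several markers. At least 1 of the 6 was at a count of 0.5 or more in 60 of the 105 positive nuclei (57.1%), in 61 of 701 marker-free nuclei (8.70%) and in 19 of 105 depth-matched ones (18.1%). At least 2 of the 6 were in 32 positive nuclei (30.5%), in 6 marker-free nuclei (0.856%) and in 1 depth-matched one. Over all nuclei of cluster 9, the share with at least 1 was 9.63% among the 779 nuclei with no marker at 0.5, 28.6% with 1 marker, 44.4% with 2, 70.0% with 3, 87.5% (7 of 8) with 4 and 100% (4 of 4) with 5. Median UMIs of these groups rose from 2326 to 7225 alongside. This is a description of single nuclei of the same libraries, made with genes picked for their difference, and has no test.

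**Figure D4:**
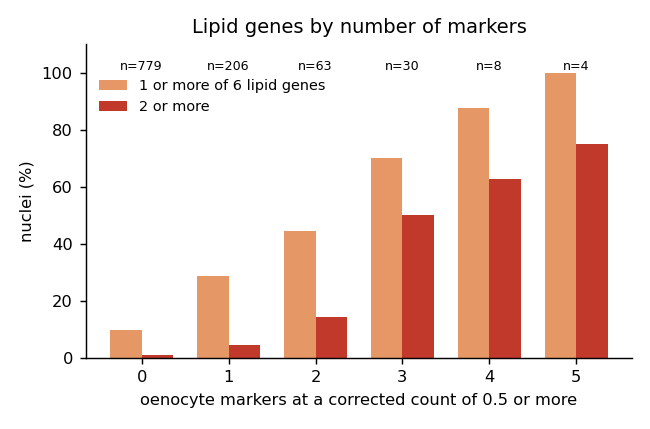
Share of cluster 9 nuclei with at least 1 (orange) or at least 2 (red) of 6 lipid genes at a corrected count of 0.5 or more, by how many of the 7 oenocyte markers the nucleus carried. The share with at least 1 was 9.63% with no marker and 70.0% with 3 markers, and the last 2 groups hold 8 and 4 nuclei.

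The rest of the oenocyte program was measured with the same lists, and few of its genes were called. Of 13 measured fatty acyl-CoA reductase and hydrocarbon genes, 11 had a count and 3 were higher and 0 lower with all genes kept (median log2 difference -0.30, beside -0.29 over all genes). The other 8 did not pass and went both ways. *CG17560* had a summed count of 6.11 in positive and 0 in marker-free nuclei (edgeR adjusted p = 0.327), and *CG12268* 0 and 2.62. *wat*, a reductase of the trachea, had a log2 difference of -0.89 (edgeR adjusted p = 0.210), and *Cpr*, the reductase partner of Cyp4g1, of -0.13 (adjusted p = 0.947). Of 30 fatty acid synthesis and elongation genes with a count, 2 were higher and 0 lower, and of 25 peroxisome genes 1 was higher. None of 15 genes of mitochondrial beta-oxidation and ketone body synthesis passed, nor did any of 57 other cytochrome P450 genes with a count. No transcription factor of the oenocyte lineage was called higher either, and 3 of the 7 listed passed the filter on low counts. None of the 6 with a count passed in edgeR's test, and *Hnf4*, which drives hydrocarbon synthesis in adult oenocytes, was at a pooled 30.9 CPM in positive and 31.9 CPM in marker-free nuclei. *salm* was at 5.06 and 4.94 CPM, with a summed count of 3.34 in the positive nuclei (log2 difference 0.35, SE 0.85). A count that low cannot decide whether *salm* differs. Of 16 genes for secreted proteins that the study's mass spectrometry assigned to oenocytes, 9 passed the filter and 0 were called in either direction (median log2 difference 0.03, beside -0.05 over all genes tested).

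In the filtered comparison 17 of 1223 genes were higher in marker-positive nuclei (1.39%) and 11 were lower (0.899%), by edgeR's quasi-likelihood test at an adjusted p below 0.05 and a log2 difference of at least 0.54. Of the 17, 10 had their highest level over all clusters in mixed cluster 11, 2 in muscle cluster 23, 5 in fat body cluster 15 and 0 in cluster 9. Of all 1223 genes tested, 8.91% had it in cluster 11, 5.81% in cluster 23, 4.66% in cluster 15 and 2.21% in cluster 9. Against depth-matched marker-free nuclei 0 of 623 genes were called higher and 0 lower (0% each, with 64 at an unadjusted p below 0.05 in edgeR and no other tool run). The 14 higher genes tested there were all above 0 and the 5 lower ones all below. That fit reused the same positive nuclei and some of the same marker-free ones, so the shared signs are no independent check. Without library 5, which holds 35 of the 105 positive nuclei, 1 gene was called higher and 1 lower. Without libraries 6, 7 and 8 the higher genes numbered 10, 8 and 8, and without libraries 1, 2 and 6 the lower ones 6, 7 and 5. DESeq2's size factors in place of TMM gave 28 higher and 11 lower, so the balance of the 2 directions depended on the scaling. With all genes kept, 9 of the 28 called genes kept their call. Restricting both sides to barcodes of 1 library gave 24 higher and 15 lower.

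Among the higher genes, the 5 with a highest level in fat body cluster 15 had the largest differences. *vir-1*, a gene induced by virus infection, led at 0, 217, 148, 219, 217, 178 and 182 CPM in the positive nuclei of libraries 1, 2 and 4 to 8, against 104, 64.7, 60.6, 69.8, 51.1, 36.5 and 62.7 CPM. Apart from the 0 of library 1, every positive sum was above every marker-free sum. The log2 difference was 1.66 (SE 0.24, edgeR adjusted p = 0.00163), it was 1.63 against depth-matched nuclei, and this gene was also called without the library block and without library 5. *Nplp2*, a neuropeptide-like precursor gene, had 0 to 550 CPM (median 155) against 26.3 to 179 CPM (median 50.5), with overlapping ranges and a log2 difference of 1.46 (SE 0.27, edgeR adjusted p = 0.00933). *fon*, a clotting factor of the hemolymph, differed by 1.12 on the log2 scale, *Lsp1alpha*, a storage protein of the fat body, by 0.97 and the fatty acid synthase *FASN1* by 0.88. *FASN1* was at 0 to 244 CPM (median 108) against 50.8 to 100 CPM (median 78.3), higher in 5 of 7 libraries (edgeR adjusted p = 0.0358), and was not called with all genes kept (adjusted p = 0.492).

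Fat body markers were measured beside these genes. Summed over 7 genes (*Fbp1*, *Fbp2*, *Lsp1alpha*, *Lsp1beta*, *Lsp1gamma*, *Lsp2* and *Adgf-D*), they took 3904 to 8646 CPM of the positive sums (median 7404) and 2894 to 7644 CPM of the marker-free sums (median 3868), higher in 6 of 7 libraries with overlapping ranges. 5 of the 7 passed the filter, 1 was called (*Lsp1alpha*) and the median log2 difference was 0.64, beside -0.05 over all genes. *Fbp2* was at 0.21 (edgeR adjusted p = 0.575), and *Lsp1gamma*, below the filter, at a pooled 9.12 CPM in positive and 25.9 CPM in marker-free nuclei. None of the 7 was at 0 on the positive side. Whether fat body RNA has a part in the higher levels of *vir-1*, *Nplp2*, *fon* and *FASN1* was not tested.

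Several of the other higher genes encode muscle proteins. *Mf*, which encodes the filament protein myofilin, was at 1403, 368, 941, 1628, 676, 755 and 1162 CPM in the positive nuclei against 561, 346, 374, 844, 433, 574 and 768 CPM in the marker-free nuclei of the same libraries. It was higher in each of the 7 libraries, although the 2 ranges overlapped. The log2 difference was 0.72 (SE 0.14, edgeR adjusted p = 0.00933). The troponin C gene *TpnC73F* (0.65) and the muscle LIM protein gene *Mlp60A* (0.64) were also higher in 7 of 7 libraries, as were the small heat shock protein gene *l(2)efl* (0.78) and the glycolytic enzyme gene *Pglym78* (0.61). *Zasp66*, *Mp20*, *Tm2* and *Mlc1* were higher in 6 of 7 libraries at 0.59 to 0.76, as was *Ldh* at 0.80. Those higher in 6 libraries fall outside the rule for naming genes and were named after their values were seen, as were the fat body genes.

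Muscle markers stood beside these genes. Summed over 7 genes of which *Tm2* is one, they took 2016 to 9175 CPM of the positive sums (median 5314) and 2286 to 6045 CPM of the marker-free sums (median 3084), higher in 6 of 7 libraries with overlap. None was at 0 on the positive side, 6 passed the filter, 1 was called, and their median log2 difference was 0.44, with *bt* at -0.13 and *sls* at 0.03. The hemocyte markers were also higher in 6 of 7 libraries (91.9 to 403 CPM against 55.9 to 166 CPM), with *NimC1* at 0, 0 genes passing the filter and 0 called with all genes kept. The 18 cuticle and epidermis genes took 303923 to 435040 CPM of the positive sums and 328134 to 377080 CPM of the marker-free sums, and 0 of the 11 tested were called. What part RNA of these tissues has in the differences was not tested.

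**Figure D5:**
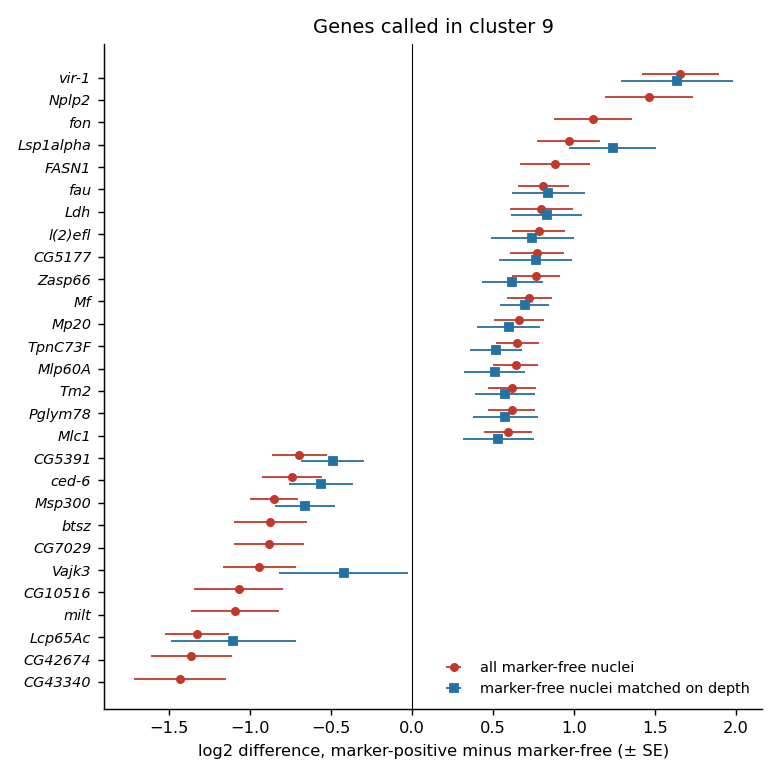
Log2 difference (marker-positive minus marker-free, with its SE) of the 28 genes called in cluster 9, against all marker-free nuclei (red circles) and, where the gene passed the filter there, against depth-matched marker-free nuclei (blue squares). The 19 genes tested in both kept their direction, and 0 of the 623 genes of the depth-matched fit were called. Both fits used the same positive nuclei, so the shared direction is no independent check.

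The lower genes belonged to no one group of the lists. The 11 tested genes of the cuticle and epidermis list were not among them, but that list did not hold *Lcp65Ac*. *Lcp65Ac*, *CG5391* and *CG10516* had their highest level over all clusters in mixed cluster 19, *Vajk3* in mixed cluster 8. *CG7029*, *btsz* and *ced-6* had it in mixed cluster 22. *CG42674* and *CG43340* had it in hemocytes, and *Msp300* and *milt* in gut stem cell cluster 21. *Lcp65Ac*, a larval cuticle protein gene, was at 0, 0, 208, 192, 172, 331 and 255 CPM in the positive nuclei of libraries 1, 2 and 4 to 8 against 492, 45.3, 391, 401, 290, 1238 and 655 CPM. It was lower in each library, with overlapping ranges, and the log2 difference was -1.33 (SE 0.20, edgeR adjusted p = 0.00163). The lower sums did not come with a smaller share of nuclei at 0.5 or more. That share was 44.8% in positive, 22.7% in marker-free and 39.0% in depth-matched nuclei. At matched depth most of the other lower genes went the other way, such as *CG42674* at 29.5% against 41.9%. *Msp300*, a nesprin that links the nuclear envelope to the cytoskeleton, was at 753 to 2173 CPM (median 1399) against 1858 to 3213 CPM (median 2458), lower in 7 of 7 libraries (log2 difference -0.85, SE 0.15, edgeR adjusted p = 0.00822). The study's authors name its protein among those expressed in muscle, so *Msp300* went the other way from the higher muscle protein genes above. *Vajk3* (-0.94), *CG7029* (-0.88), *btsz* (-0.87) and *CG42674* (-1.36) were lower in 7 of 7 libraries too. *ced-6* (-0.74), an adaptor for engulfment, and *CG5391* (-0.70) were lower in 7 of 7, *milt* (-1.09) and *CG10516* (-1.07) in 6, and *CG43340* (-1.43) in 5. Without library 5 *Lcp65Ac* alone kept its call.

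Of 5 genes listed as leading cluster 9 from earlier results of these data, *Pxd*, *CG17738* and *BomS2* had their highest level there, whereas *Obp28a* had it in cluster 2 and *CG8854* in cluster 22. *Pxd* and *CG17738* were not called in the comparison of the 2 sides (log2 differences of -0.19 and -0.25, edgeR adjusted p = 0.658 and 0.366). *CG17738* was found in 100% of the positive and 99.6% of the marker-free nuclei, so both sides carried the gene at 5714 to 9837 and 7182 to 9681 CPM. *Obp28a* and *CG8854* were lower with all genes kept. *Obp28a* was in 1 positive and 9 marker-free nuclei, 1 of which held 49.7% of its marker-free sum, and its difference was lost against depth-matched nuclei (-0.09, edgeR adjusted p = 1). *CG8854* (-1.58, edgeR adjusted p = 0.0386) was in 8 positive and 70 marker-free nuclei, and lost its call against depth-matched nuclei.

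The same comparison was made in clusters 16 and 15, whose shares were nearest to that of cluster 9, each in 4 libraries. In cluster 16, 2 of 739 genes were higher (0.271%) and 4 lower (0.541%). In cluster 15, 1 of 789 was higher (0.127%) and 0 were lower (0%, with 32 at an unadjusted p below 0.05 in edgeR and no other tool run). Not all of the 28 genes called in cluster 9 could be tested in clusters 16 and 15, and of those tested 0 were called in either. Of the 17 higher genes, 14 of the 15 tested in cluster 16 were above 0 (median log2 difference 0.80) and 7 of the 10 tested in cluster 15 (median 0.21). Of the 11 lower genes, 3 of the 4 tested in cluster 16 were below 0 (median -0.80). The 2 tested in cluster 15 were both above 0 (median 0.14). A test of the difference between clusters passed for 29 of 1643 genes between clusters 9 and 16 (1.77%), of which 1 was among the 28, *CG5391*. It passed for 0 of 1972 between clusters 9 and 15. For *vir-1* the difference between clusters 9 and 16 was 1.69 (SE 0.45, edgeR adjusted p = 0.0589), and between clusters 9 and 15 it was 1.71 (SE 0.42, adjusted p = 0.151). The test also passed for *Pxd* (-0.19 in cluster 9 and 1.34 in cluster 16) and *CG17738* (-0.25 and 0.98), with differences of -1.56 and -1.30 (edgeR adjusted p = 0.0241 and 0.0226). With all genes kept, *FarO* (3.87), *CG4020* (5.86) and *CG6660* (3.99) were higher in the marker-positive nuclei of cluster 15 as well (edgeR adjusted p = 2.38e-05, 1.44e-06 and 9.61e-06). *CG17562* (2.60, edgeR adjusted p = 0.0685) and *CG15531* (2.21, edgeR adjusted p = 0.54) were not called there. None of the 6 lipid genes was called in cluster 16, where *FarO* differed by 4.08 (SE 1.99, edgeR adjusted p = 0.906).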

How the data were processed

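Nuclei of 8 libraries were sequenced as single-nucleus RNA-seq. Per the labels, reads were processed with Cell Ranger 7.1.0 on the BDGP6 genome. The authors then subtracted estimated ambient RNA with DecontX and integrated and clustered the nuclei, and the deposited values are expected counts per gene and nucleus (12610 genes, not whole numbers), with the authors' cluster names. Libraries were told apart by the barcode suffix, and 0 columns of samples outside the labels were present. The authors removed likely doublets with DoubletFinder before deposit, and no caller was run again.

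Counts of the 12603 genes outside the marker rule were summed by side in each library with at least 3 nuclei a side, rounded to whole numbers and tested in edgeR 4.0.16 (R 4.3.3) with TMM, filterByExpr (minimum count 10), the quasi-likelihood test, library as a block and Benjamini-Hochberg adjustment. Both sides of a library came from the same pool of larvae, and their deviations correlated at 0.088 to 0.417 (-0.066 to 0.002 with other libraries). A call needed an adjusted p below 0.05 and a log2 difference of at least 0.54. DESeq2 1.42.0, other marker limits, depth-matched, thinned and unfiltered sums and left-out libraries were alternatives. Standard errors and p-values come from the libraries of each fit, which were 7 in the main comparison. Held-out *FASN3*, *Cyp4g1* and *Lectin-galC1* used 5 libraries, and clusters 16 and 15 used 4 each. In the unfiltered fit a low adjusted p did not need agreement between libraries. *Akh* (edgeR adjusted p = 8.95e-18) was higher in 2 libraries and lower in 5, and *CG14075* (adjusted p = 4.17e-08) higher in 1 and lower in 5. Each of the 6 lipid genes was higher in 5 to 7 libraries. Named genes were those called and changed in the same direction in every library, at 0.5 or more in at least 10% of nuclei of the higher side (at most 12 higher and 6 lower), called genes of the lists, and 5 genes listed as leading cluster 9. Members, lists and the rule were chosen with earlier results of these data known. Sums and tables were computed in pandas 2.3.3, scipy 1.17.1 and numpy 2.4.6 under Python 3.11.15.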

Additional observations from a re-analysis of the deposited data

Results flagged for a closer look

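*CG42674* was at 549 CPM in the marker-free nuclei of library 2, far above the other 6 libraries. *vir-1* was at 0 CPM in the positive nuclei of library 1, which are 3 in number, far below the other 6. *Obp28a* was at 6.10 CPM in the positive nuclei of library 5 and at 0 in the other 6. In marker-free nuclei *FarO* was highest in library 8, at 6.82 CPM, and so was *CG4020*, at 8.07 CPM. Among 85 groups checked for a library that stands apart, these were the 5 found, and chance alone gives such a library in about 5% of groups. The log2 difference of *CG5391* between positive and marker-free nuclei was -0.70 in cluster 9 and 0.65 in cluster 16, and the difference between the clusters, tested itself in a model of both, was -1.42 (SE 0.35, edgeR adjusted p = 0.0406). *Pxd* differed between the same clusters by -1.56 (SE 0.34, adjusted p = 0.0241) and *CG17738* by -1.30 (SE 0.28, adjusted p = 0.0226) in edgeR.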

How the results depend on the processing

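The number of genes called depended on the processing, and the direction of the called genes did not, since none of the 28 changed sign in any alternative that tested it. The alternatives reused nuclei of the main comparison, so the shared signs are no independent check. Against 17 higher genes, edgeR called 1 with no replicate block, 28 with DESeq2's size factors, 0 against depth-matched nuclei, 9 after thinning to 1000 UMIs, 6 with 3 or more markers, 28 with 2 or more markers above 0 and 29 in libraries with at least 5 nuclei a side (the last chosen after seeing the data). Against 11 lower genes, it called 0 with no replicate block, 37 with no filter, 0 at matched depth, 5 after thinning and 1 with 3 or more markers, and DESeq2 called 5. Leaving out 1 library gave 1 to 24 higher and 1 to 13 lower genes. At matched depth 0 genes passed, with 64 at an unadjusted p below 0.05, and without the library block 162 of 1223 were below it. The unfiltered fits at matched depth and with left-out libraries, and those for *lectin-22C*, were also added after the data were seen. The calls for held-out *FASN3* (4.33 with no replicate block), *Cyp4g1* (3.90) and *Lectin-galC1* (3.37) were the same in each alternative. The mean share per library was 6.56 to 9.27% with 1 library left out, 3.14% with 3 or more markers and 11.8% with markers above 0. Depth limits the genes tested, since 2 of 7 libraries had 3 positive nuclei each and most genes fell below the filter. The cause of the changes in count was not tested.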

Other observations

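Among the other low genes called higher with all genes kept, 5 had over 50% of the positive sum in 1 nucleus. *Akh*, the adipokinetic hormone gene of the corpora cardiaca, was in 6 positive and 6 marker-free nuclei, with 57.3% of its positive sum in 1 nucleus (log2 difference 4.11, edgeR adjusted p = 8.95e-18). *Sh*, a potassium channel gene, was in 3 positive nuclei with 75.8% of the sum in 1, and *CG14075* in 2 with 74.3% in 1. *CG13230* (55.6% in 1 of 15 nuclei) and *Stacl* (59.8% in 1 of 5) were the others. *CG31157* (log2 difference 3.95, SE 1.04, edgeR adjusted p = 0.0328) and *CG6012* (2.49, SE 0.63, adjusted p = 0.0285) were spread over 10 and 13 positive nuclei, with 16.5% and 13.7% of the sum in 1, against 1 and 6 marker-free nuclei. Neither was called at matched depth (adjusted p = 0.719 and 0.793). For comparison, the highest single nucleus held 11.5% of the positive sum of *FarO*, 10.3% of that of *CG17562* and 11.2% of that of *CG15531*.

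Among low genes called lower, *CG34353* had 91.9% and *CG7298* 88.0% of the marker-free sum in 1 nucleus. *Mo25*, a scaffold protein gene, was instead spread over 143 marker-free nuclei (20.4%) and 21 positive ones (20.0%), with a log2 difference of -1.34 (edgeR adjusted p = 0.0328) that was -0.86 and not called at matched depth (adjusted p = 0.992). These genes were named after their values were seen.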
